A study of Bos taurus with 12 samples.

Results

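Expression of 8 immediate early genes other than FOS was described in mammary tissue of lactating dairy cows before and during feed restriction. The genes were EGR1, NR4A1, MYC, DUSP1, ZFP36, IER2, IER3 and BTG2. They were taken by name, and every probe whose RefSeq transcript carried one of these symbols was included, giving 15 of the 43653 probes on the arrays and 7 of the 12787 genes with a symbol. No probe was matched to BTG2, a growth-restraining partner of the deadenylase complex, so it was not analysed here. Of the 15 probes, 9 were bright enough to be tested, and they covered 7 genes.

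The samples were mammary biopsies of multiparous midlactation Holstein cows, taken from opposite sides of the rear udder in turn, so that the same cow gave both samples. The 6 CONT arrays came from day 0, when cows had free access to a total mixed ration. The 6 REST arrays came from day 6 of a feed allowance that covered 50% of the net energy each cow required for lactation. The labels name 6 cows, whereas the series description counts 5 and the methods mention a Holstein cow excluded for mastitis without saying which, so the tests were repeated without each cow. Cows are numbered by the replicate number of their samples.

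Immediate early genes are transcribed within minutes of a stimulus, from promoters already poised for activation and without new protein synthesis. Growth factors, hormones, calcium, stretch and cellular stress reach them mainly through MAP kinase cascades acting on SRF, its ELK and MRTF cofactors, and CREB. Their products fall into transcription factors that pass the signal on and proteins that end it, and the messengers are mostly short-lived. In the mammary gland they are known to respond to hormones, to weaning and to tissue handling.

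Signals are given as log2 of the processed intensity relative to the 75th percentile of the array, so that 0 is the level of that percentile. Levels of different probes are not comparable with each other, and genes are described by differences between samples of the same probe. The exception is the summed level of marker lists, in which the brightest probes weigh most. A probe passed the test when its adjusted p was under 0.1, by limma with the cow as a block and Benjamini-Hochberg adjustment over all 19403 tested probes. In bulk tissue, fewer cells of a type and less RNA per cell cannot be told apart.

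The arrays differed in brightness. The 75th percentile lay between 252 and 390.0 intensity units on slides 1 and 2, which held cows 1 to 4, and between 73.2 and 117 on slide 3, which held cows 5 and 6. On slide 3, 41.9 to 48.0% of spots exceeded background clearly, against 61.8 to 67.9% for the other slides. Before normalization, REST arrays were the brighter of each pair in 6 of 6 cows, with a mean log2 difference of 0.30 ± 0.10 (SD, n = 6; two-sided exact sign-flip test, p = 0.03125, which is the minimum for 6 pairs). The percentile shift took that difference away. Of the 8 luminal epithelial markers, 7 were tested on these arrays, with ELF5, EPCAM and KRT19 among those measured on every array.

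IER2 was higher in REST by 1.50-fold and passed the test. EGR1 also passed, with a mean 1.78-fold higher in REST, but its probe was admitted to the test through REST alone, as 1 CONT array was not well above background. When all 12 arrays had to be above background, EGR1 was not tested. IER2 was then the 1 member that passed by its brightest probe, with a further probe of DUSP1 also passing, where 17.9% of tested probes passed. As admitted, 2 of 7 tested genes passed, and this count includes a gene that the filter let in on its higher group. Among all 7930 tested genes, 1285 passed, or 16.2%, and 550 of these were higher in REST, or 6.94%. DUSP1 and ZFP36 had positive mean changes that did not pass. NR4A1, IER3 and MYC had mean changes close to 0. Without the cow as a block, 1 of the 7 passed, EGR1, where 4.4% of all tested genes passed and 1.59% passed in the direction higher in REST. The median change of the 7 genes was 0.49 on the log2 scale, with 5 of 7 above 0. Over all tested genes the median was -0.01, with 48.4% above 0. The 7 include EGR1 at 0.83, which the filter let in on its higher group. The other members were at 0.68, 0.58, 0.49, 0.08, -0.06 and -0.17, so the median is lower without EGR1.

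**Figure D1:**
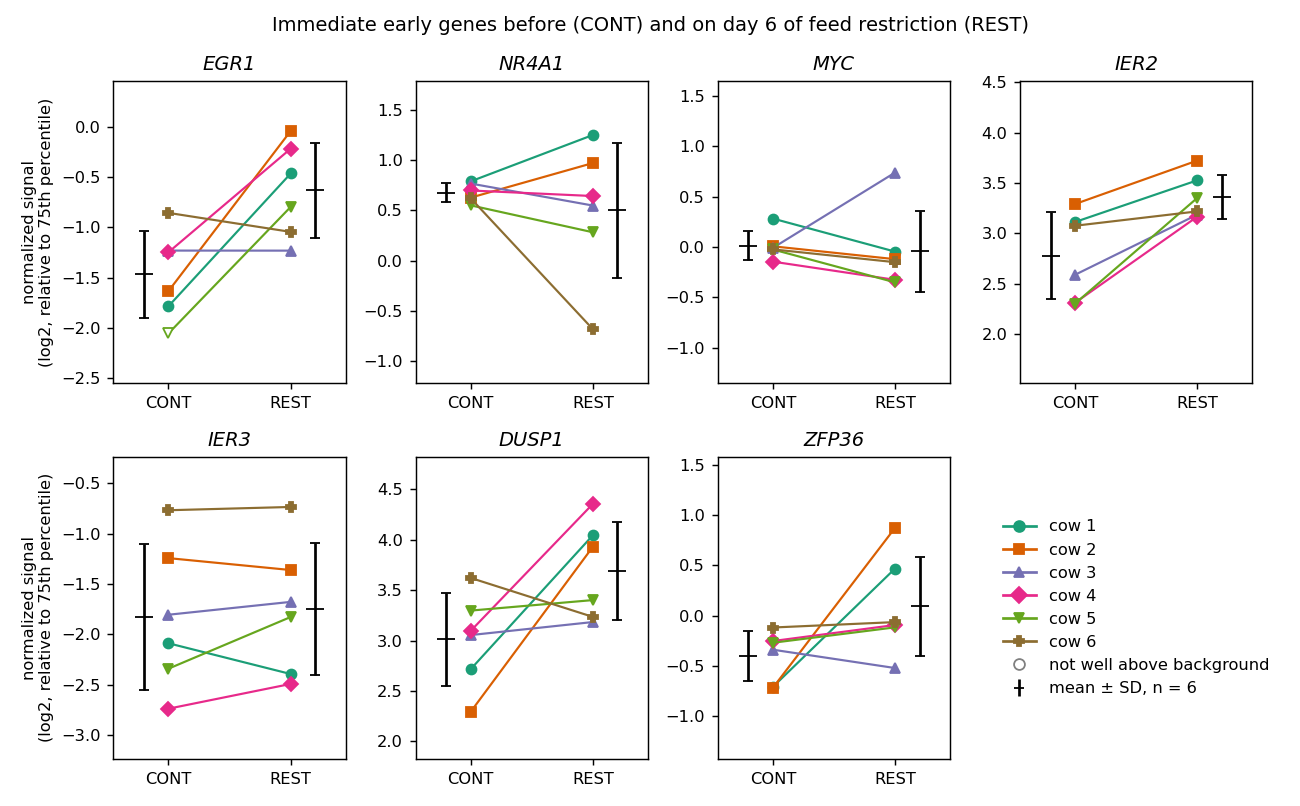
Normalized signal (log2, relative to the 75th percentile of the array) of the 7 tested genes in CONT and REST, with a line for each cow and the mean ± SD (n = 6) beside each group. Every panel spans 3 log2 units, and the open symbol is a sample not well above background; IER2 rose in all 6 cows, whereas MYC was higher in REST in cow 3 alone.

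The first group of members are transcription factors. EGR1 (NM_001045875) encodes a zinc finger factor that binds GC-rich promoter elements and switches on growth factor and matrix genes. Its signal ran from -2.05 through a median of -1.44 to -0.86 in CONT and from -1.23 through -0.63 to -0.04 in REST. The lowest CONT value belonged to cow 5 and was not well above background, so this probe entered the test through REST, where 6 of 6 arrays were above background against 5 of 6 in CONT. The groups overlapped, because cows 3 and 6 had the highest CONT and the lowest REST values.

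The mean rise of EGR1 was 0.83 ± 0.24 on the log2 scale (SE, n = 6 cows; 95% interval 0.29 to 1.38; limma adjusted p = 0.0658). By cow, the change was 1.32, 1.59, -0.00, 1.03, 1.26 and -0.19 for cows 1 to 6. Cows 1, 2, 4 and 5 thus rose at least 2.04-fold, and cows 3 and 6 were flat or slightly lower. The value of cow 5 in this list is taken against a CONT signal at background, and without cow 5 the mean rise was 0.75. The call was lost with any of those 4 cows left out, at adjusted p between 0.113 and 0.178, with rises of 0.68 to 0.80. It was also lost when the background was corrected by normexp before the percentile shift, which put the change at 0.40 (adjusted p = 0.137). The other EGR1 probe was not well above background on any array and gives no fold.

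NR4A1 (NM_001075911) encodes an orphan nuclear receptor that is regulated mainly by its own abundance. Its brightest probe ran from 0.55 through 0.66 to 0.79 in CONT and from -0.68 through 0.59 to 1.25 in REST. The CONT samples lay close together, and the REST samples spread on both sides of them. The SD over cows was 0.09 in CONT and 0.67 in REST. NR4A1 was higher in REST in cows 1 and 2, by 0.46 and 0.34, and lowest in cow 6, by -1.30.

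The mean change of NR4A1 was -0.17 ± 0.20 (SE; 95% interval -0.64 to 0.29; adjusted p = 0.618), and it had no stable sign, being 0.05 without cow 6, 0.13 without slide 3 and 0.12 without scaling between arrays. Its 2 other probes were above background on 3 and 0 CONT arrays and on 4 and 2 REST arrays, and were not tested. The first of these was above background in both periods in cows 1 to 3, where its change was 0.84, 1.34 and 0.65, and the second in no cow.

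MYC (NM_001046074) encodes the factor that, paired with MAX, drives ribosome production and cell growth. It ran from -0.15 through -0.02 to 0.28 in CONT and from -0.35 through -0.14 to 0.74 in REST. Cow 3 stood apart in REST at 0.74, and cow 1 in CONT at 0.28. The change was negative in 5 of 6 cows, between -0.33 and -0.13, and was 0.75 in cow 3. The mean change was -0.06 ± 0.14 (SE; 95% interval -0.38 to 0.26; adjusted p = 0.825). Without cow 3 it was -0.22 (adjusted p = 0.172), and its sign turned without slide 3 (0.03) and without scaling between arrays (0.24). The second MYC probe, above background on 5 CONT and 4 REST arrays and not tested, also had its highest change in cow 3, at 0.89.

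The second group of members end the signal. DUSP1 (NM_001046452) encodes a nuclear phosphatase that inactivates MAP kinases. Its brightest probe ran from 2.29 through 3.07 to 3.62 in CONT and from 3.18 through 3.67 to 4.36 in REST. Cows 1, 2 and 4 held the highest REST values, and cow 6 had the highest CONT value, so the groups overlapped. The change by cow was 1.33, 1.64, 0.13, 1.26, 0.10 and -0.39 for cows 1 to 6. Cows 1, 2 and 4 were thus at least 2.40-fold higher in REST, and the other 3 cows lay between 0.765-fold and 1.09-fold.

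The mean change of DUSP1 was 0.68 ± 0.26 (SE; 95% interval 0.08 to 1.28), with an adjusted p of 0.138. The other 2 tested probes gave 0.72 ± 0.26 (adjusted p = 0.115) and 0.79 ± 0.38 (adjusted p = 0.213). Cow 2 was highest and cow 6 lowest by all 3 probes. The change passed the test without cow 6, at 0.89 (adjusted p = 0.0695), and without slide 3, at 1.09 (adjusted p = 0.0379). It also passed with the cow as a random block (adjusted p = 0.0646) and with normexp before the percentile shift (0.77, adjusted p = 0.0555). It was smaller without cow 1, 2 or 4, at 0.55, 0.49 and 0.56 (limma adjusted p = 0.297, 0.331 and 0.304). Within slides, the mean change was 1.49 on slide 1, 0.70 on slide 2 and -0.14 on slide 3, with 2 cows on each.

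ZFP36 (NM_174493) encodes tristetraprolin, which binds AU-rich elements of short-lived messengers, cytokine messengers among them, and brings the deadenylase to them. It ran from -0.72 through -0.30 to -0.12 in CONT and from -0.52 through -0.08 to 0.87 in REST. Cows 1 and 2 had the lowest CONT and the highest REST values, and the other 4 cows stayed close to their CONT values. The change was 1.18 and 1.59 in cows 1 and 2 and between -0.18 and 0.16 in cows 3 to 6. The mean change was 0.49 ± 0.23 (SE; 95% interval -0.03 to 1.01; adjusted p = 0.203). Without cow 2 it was 0.27. Cows 1 and 2 made up slide 1, so slide and cow cannot be told apart for this gene.

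**Figure D2:**
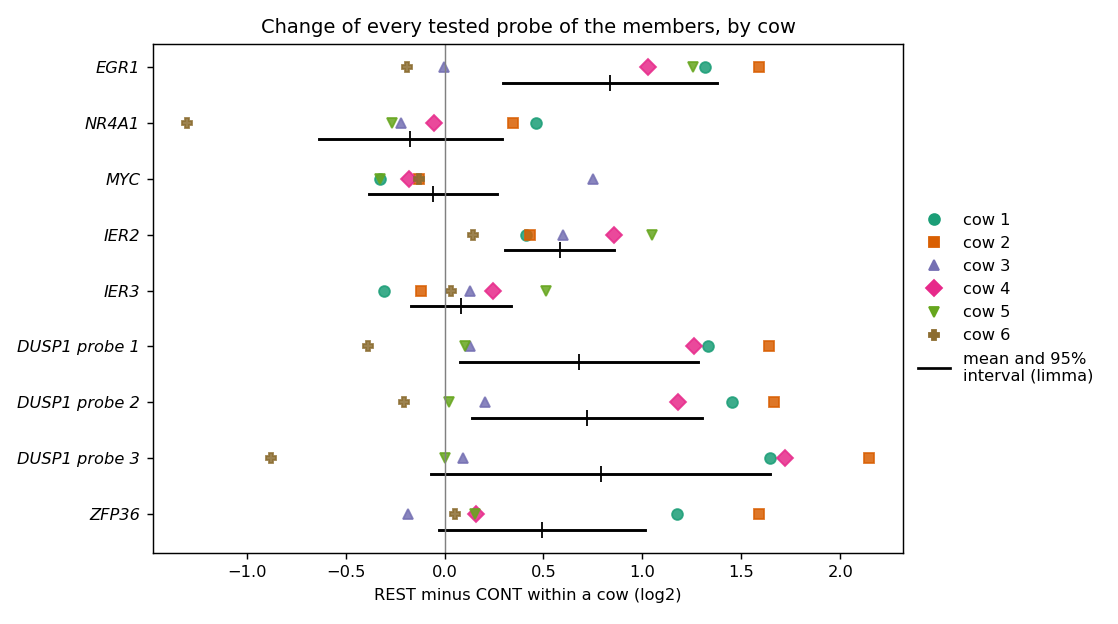
REST minus CONT (log2) within each cow for the 9 tested probes of the members, with the mean and 95% interval from limma under each set of points. Cows 1, 2 and 4 are at the right and cow 6 at the left for all 3 DUSP1 probes, and the MYC point of cow 3 stands alone at 0.75.

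The last members are named for their immediate early response. IER2 (NM_001075871) encodes a small nuclear protein. It ran from 2.30 through 2.83 to 3.29 in CONT and from 3.16 through 3.28 to 3.72 in REST. Every cow was higher in REST, and the cows with the lowest CONT values, 4 and 5, rose most. CONT is a part of the change, so a low CONT value enlarges it by itself, and this relation was not tested. The change by cow was 0.41, 0.43, 0.60, 0.86, 1.05 and 0.14 for cows 1 to 6. The spread between cows was smaller in REST (SD 0.22) than in CONT (SD 0.43); that difference was not tested.

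The mean rise of IER2 was 0.58 ± 0.12 (SE; 95% interval 0.31 to 0.86; adjusted p = 0.0295). It passed the test with each cow left out, at 0.49 to 0.67 and adjusted p between 0.0255 and 0.0936. Without the cow as a block it did not pass (adjusted p = 0.126), nor without a filter on dim probes (adjusted p = 0.130). Within slides the mean change was 0.42, 0.73 and 0.60 for slides 1 to 3. The second IER2 probe was not tested, and was above background in both periods in cows 1 to 4, where its change was 0.36, 1.05, 0.26 and 0.29.

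IER3 (NM_001075202) encodes a membrane-anchored protein that modulates cell survival under stress. It ran from -2.74 through -1.95 to -0.77 in CONT and from -2.49 through -1.75 to -0.74 in REST. Cows kept nearly the same order, with cow 6 highest and cow 4 lowest in both periods. The mean change was 0.08 ± 0.11 (SE; 95% interval -0.17 to 0.33; adjusted p = 0.665), with cows 1 and 2 lower and the other 4 higher. The sign turned with normexp before the percentile shift (-0.12), without slide 3 (-0.01) and without cow 5 (-0.00). The second IER3 probe was not tested, and was above background in both periods in cows 1 to 4, where its change was -0.54, 0.08, -0.14 and -0.09. In cows 2, 3 and 4 its sign was opposite to that of the tested probe.

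The members differed between cows. The median change of the 7 genes, EGR1 with its admission through REST included, was 0.46, 0.43, 0.13, 0.25, 0.15 and -0.13 for cows 1 to 6. The median of all tested genes lay between -0.05 and 0.01 in every cow. Cow 6 differed most from the rest, with 3 of 7 members above 0 and NR4A1 at -1.30. The SD of the change over cows stood at the 98.0 percentile of all tested genes for DUSP1, 97.0 for EGR1, 96.5 for ZFP36, 94.7 for NR4A1, 81.3 for MYC, 69.5 for IER2 and 60.5 for IER3.

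**Figure D3:**
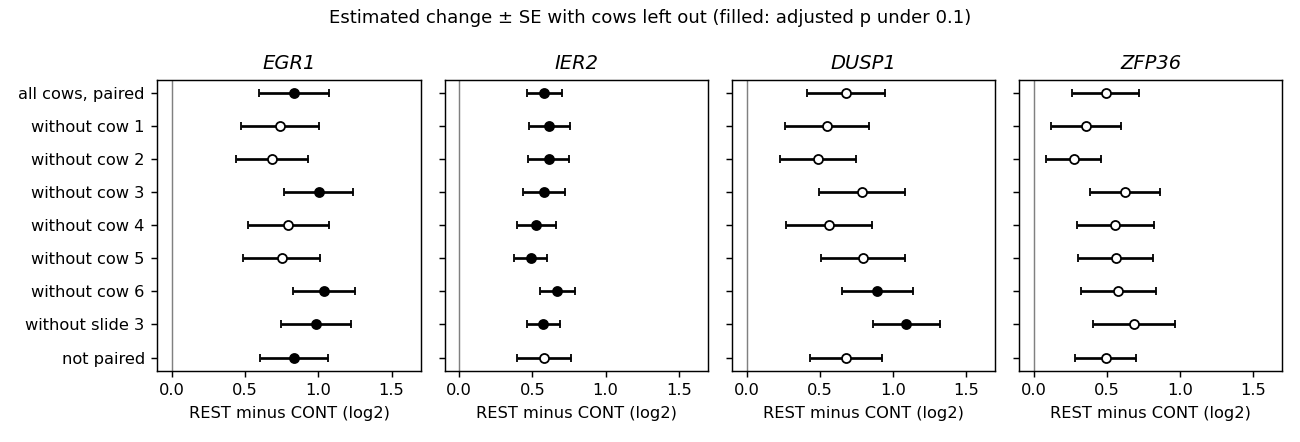
Estimated change (REST minus CONT, log2) ± SE for EGR1, IER2, DUSP1 and ZFP36 with all cows, with each cow left out, without slide 3 and with the cow not used as a block; filled points had an adjusted p under 0.1. IER2 stayed filled in all 6 cases with a cow left out, EGR1 in 2 of 6 and DUSP1 in 1 of 6, and ZFP36 in none.

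Of the AP-1 family, the other classical immediate early factors, 6 of 8 genes were tested, with 3 that rose, 1 that fell and a median change of 0.76, beside 16.2% of all tested genes that passed. FOS was counted as risen, at 2.76 ± 0.16 (adjusted p = 0.000761), but its probe was above background on 4 of 6 CONT and 6 of 6 REST arrays. It was therefore admitted through its higher group, and its size is taken in part against CONT values at background. JUNB rose by 0.84 ± 0.16 (adjusted p = 0.0213) and JUN by 0.81 ± 0.22 (adjusted p = 0.0587), each in 6 of 6 cows. Of the 3 tested probes of JUN, 2 passed. The rises of JUNB and JUN were near that of EGR1. FOSB fell by 0.43 in the mean, with 0 of 6 cows higher (adjusted p = 0.0285). Without the cow as a block FOS alone of these passed.

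Of 23 close relatives of the members, 17 had a probe and 11 were tested, and 4 of these rose and 0 fell, where 6.94% of all tested genes rose. The median change was 0.28 and 9 of 11 had a positive change. Without the block 0 passed (limma), where 4.4% of all tested genes did. NR4A2, the nuclear receptor next of kin to NR4A1, rose by 0.72 ± 0.16 in 6 of 6 cows (adjusted p = 0.0355), while NR4A1 itself did not pass. The relatives of ZFP36, which destabilise messengers in the same way, were ZFP36L2 at 0.45 ± 0.12 (adjusted p = 0.0516) and ZFP36L1 at 0.44 ± 0.10 (adjusted p = 0.0343). Both rose in 6 of 6 cows. MAX, the partner of MYC, rose by 0.33 ± 0.11 (adjusted p = 0.0881). The differences between relatives were not tested.

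Other primary response genes were mixed in direction. Of 38 named, 28 were tested, 5 rose and 2 fell, where 16.2% of all tested genes passed and 6.94% rose, and the median change was 0.22. Without the block 3 rose and 1 fell, where 4.4% of all tested genes passed. GADD45G, a growth arrest and stress sensor, fell by 1.65 on the log2 scale (SE 0.32, adjusted p = 0.0232), lower in 6 of 6 cows. KLF10, a repressor induced by TGF-beta, rose by 0.81 ± 0.14 (adjusted p = 0.0171). HES1, the Notch-responsive repressor, rose by 0.73 ± 0.16 (adjusted p = 0.0343), and the epithelial factor KLF4 rose by 0.57 ± 0.08 (adjusted p = 0.00947). The median of this list by cow was 0.48, 0.51, -0.00, 0.47, -0.08 and -0.13 for cows 1 to 6, highest in the 3 cows with the highest DUSP1. CDKN1A, the cell cycle inhibitor p21, chosen after its values were seen, had a pattern like that of DUSP1, with 1.47, 2.01 and 1.56 in cows 1, 2 and 4 and negative changes in the other 3, and it did not pass (0.59 ± 0.38, adjusted p = 0.350).

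**Figure D4:**
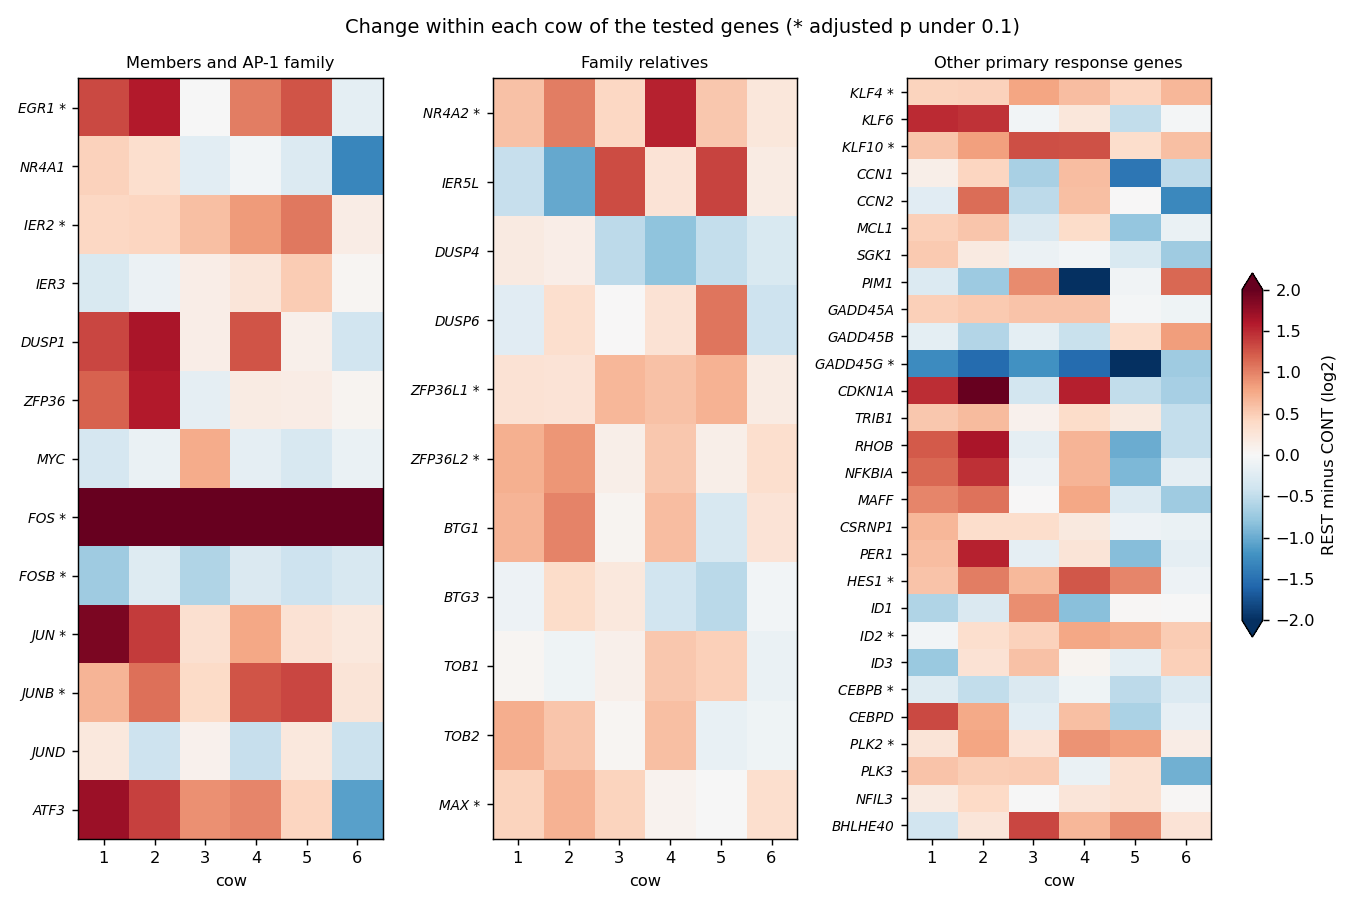
REST minus CONT (log2, colour) of each tested gene (rows) in each cow (columns) for the members and AP-1 genes, relatives of the members, and other primary response genes; an asterisk marks an adjusted p under 0.1 and colours saturate at 2 and -2. FOS is past the end of the scale in all 6 cows, and DUSP1 and CDKN1A are reddest in cows 1, 2 and 4.

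The kinases and factors upstream of these genes stayed near 0 in the median. Of 23 named, 13 were tested, with a median change of 0.02, and 1 passed, beside 16.2% of all tested genes. This was MRTFB, an actin-sensing cofactor of SRF, which rose by 0.61 ± 0.14 in 6 of 6 cows (adjusted p = 0.0377). SRF itself was not bright enough to be tested. Of 16 partners and inhibitors, 14 were tested, the median change was -0.02 and 1 passed. That was NAB2, a corepressor that binds EGR1 and is itself an EGR1 target, at 0.31 ± 0.10 and higher in 5 of 6 cows (adjusted p = 0.0871); 1 of its 3 tested probes passed. Without the block neither passed (adjusted p = 0.129 for MRTFB and 0.596 for NAB2).

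Genes known as targets of the members showed a median change of 0.04, with 17 of 22 tested, 1 that rose and 1 that fell, beside 16.2% of all tested genes that passed. ICAM1, an adhesion molecule that leukocytes bind on endothelium, was the gene counted as risen, at 0.75 ± 0.13 and higher in 6 of 6 cows (adjusted p = 0.0175). Its probe was above background on 5 of 6 CONT and 6 of 6 REST arrays, so it too was admitted through its higher group. CCND1, the cyclin of G1 entry, fell by 0.83 on the log2 scale (SE 0.23, adjusted p = 0.0594), lower in 5 of 6 cows. The cytokine messengers bound by ZFP36 gave TNF 0.05 and IL1B 0.04, neither past the test, and IL6, CXCL8 and CSF2 were too dim to be tested. The TNF probe was dim, at a CONT mean of -2.40. It was above background on 6 of 6 CONT and 5 of 6 REST arrays, so it was admitted through CONT alone.

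The pattern most like the mean of the 7 genes over the 12 arrays, by Pearson r and as a description, belonged to SH3D21 (r = 0.949), NXT2 (0.900), PLSCR3 (0.893), CAT (0.877), LYVE1 (0.860), SCNN1G (0.859), RBM17 (0.858) and EIF4B (0.855). Arrays of a cow share that cow and slide, and genes of strong change share the period. The members themselves correlated with that mean, of which each is a part, at 0.884 for EGR1, 0.813 for ZFP36, 0.780 for IER2, 0.721 for DUSP1, 0.297 for IER3, 0.277 for NR4A1 and -0.133 for MYC. SCNN1G, a subunit of the epithelial sodium channel, had the largest change of these 8 neighbours, 1.27 ± 0.14 in 6 of 6 cows (adjusted p = 0.00474).

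Markers of cell types moved with the period in part. The summed level of the 7 tested luminal epithelial markers, on the linear scale relative to the 75th percentile, was 2047 to 2755 in CONT and 1695 to 2256 in REST, lower in 6 of 6 cows. That sum was carried by the milk proteins CSN3 and LALBA, whose probes were the brightest of the list, at mean log2 signals of 9.70 and 9.80 in REST. The median change of the same 7 markers was 0.12, the opposite direction, with 4 of 7 above 0. KRT8 and KRT18 were called higher, each with 2 of 3 tested probes passing. CSN3 was called lower, with 1 of 2 tested probes passing. All 5 endothelial markers were tested. Their sum was 8.43 to 11.4 in CONT and 10.2 to 12.5 in REST, higher in 6 of 6 cows. VWF, the brightest of them, was called higher, and KDR had a mean change of -0.15. The median change of the endothelial markers was 0.13, with 4 of 5 above 0. The 4 tested of 6 lymphocyte markers summed to 13.0 to 21.0 in CONT and 15.9 to 21.6 in REST. The sum was higher in 5 of 6 cows, and CD3D was its brightest probe. CD3E was called higher, and the median change was 0.06, with 2 of 4 above 0. The 5 tested of 6 macrophage markers summed to 6.05 to 9.12 and 6.07 to 9.36, higher in 2 of 6. Their median change was 0.17, with 3 of 5 above 0. The 5 tested of 6 myoepithelial markers summed to 78.3 to 153 in CONT and 74.4 to 145 in REST. The sum was higher in 1 of 6 cows, and ACTA2, its brightest probe, was called lower. The median change of these markers was 0.10, the opposite direction, with 3 of 5 above 0. The 6 fibroblast markers, all tested, summed to 34.2 to 63.9 and 26.4 to 73.5, higher in 3 of 6. Their median change was -0.36, with 2 of 6 above 0. Skeletal muscle markers, 3 of 5 tested, summed to 2.38 to 4.07 and 1.91 to 3.26, lower in 6 of 6. CKM, the brightest of these, was called lower, and the median change was -0.21, with 1 of 3 above 0. These sums therefore differed in direction between cell types, and the luminal epithelial, myoepithelial and macrophage sums ran against the medians of their lists. Of the neutrophil and erythrocyte markers 1 each was tested, S100A12 and HBA, and neither passed, and of the adipocyte markers 0 were tested. Their part in the changes of the immediate early genes was not tested, nor was that of the repeated biopsy.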

How the data were processed

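Processed data were 12 single-colour (Cy3) Agilent bovine 4 × 44K arrays, 6 CONT and 6 REST, from 50 ng of total RNA each. The authors extracted the images with Feature Extraction 11, and the deposited intensity per spot is the processed signal, corrected for background and spatial trend and not scaled between arrays. The deposited value table held the same intensity values. No counts underlie them, so the number of arrays limits the precision.

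Here log2 intensity was taken, spots marked as outliers were left out (1 to 13 per array), and each array was shifted by its 75th percentile (control spots excluded), as in the study's methods. Probes well above background on every array of at least 1 group were tested, 19403 of 43653. limma 3.58.1 in R 4.3.3 compared REST with CONT with the cow as a fixed block, two-sided, with Benjamini-Hochberg adjustment and a threshold of 0.1. The methods do not state whether their test was paired. The pairing comes from the animal identifiers of the labels: deviations from group means correlated with r of 0.355 to 0.574 within a cow and -0.326 to 0.135 between cows. Both samples of a cow lay on 1 slide, with 2 cows a slide. A gene is given by its tested probe of highest mean signal.

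Symbols came from the RefSeq table of assembly ARS-UCD2.0 through the transcript identifiers (62.2% of probes). The arrays refer to an older assembly, so no positions are given. All members and all their probes were named, with at most 4 called genes of each of 7 lists by size of change, and the 8 genes most like the members' mean. The members and lists, and 10 marker lists, were chosen with earlier results of these data known. The fit was tested on simulated data. Alternatives were other scalings, background corrections, filters and blocks, and leaving out cows or slide 3. Python 3.11.15 with pandas 2.3.3 and matplotlib 3.10.9 was used for the summaries and plots.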

Additional observations from a re-analysis of the deposited data

Results flagged for a closer look

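In 21 groups of 6 values, CONT, REST and the change for each of the 7 tested genes, the gap between the most extreme sample and its neighbour was set against the range of the group. The share was above Dixon's critical value of 0.625 in 3 groups, all of MYC, where chance marks about 1 in 20 independent groups. The groups were not independent, since each change is REST minus CONT of the same cows, and the REST value and the change of MYC were both marked for cow 3, so the 3 are not set against a chance count. The gap was 0.644 of the range in CONT, where cow 1 was high, 0.720 in REST, where cow 3 was high, and 0.813 for the change, where cow 3 was alone above 0. The untested second MYC probe also had its highest change in cow 3.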

How the results depend on the processing

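Without the cow as a replicate block, 836 probes (4.31% of those tested) and 1 member passed, against 3104 (16.0%) and 2 with it. IER2 was the member lost. No scaling between arrays gave 11727 probes, 60.4% of those tested, and 5 members. Of these probes 96.6% were higher, against 45.1% in the main setting, and the median of all probes was 0.30 instead of 0.00. Without a filter on dim probes, 388 probes (0.889%) and 0 members passed (limma, 8949 probes at an unadjusted p under 0.05). When all 12 arrays had to be well above background, 17.9% of tested probes passed. In that setting 1 member passed by its brightest probe, since EGR1 was no longer tested, or 2 by any tested probe, IER2 and DUSP1. With slide as a block 1898 probes (9.78%) and the 2 members of the main setting passed, IER2 at a limma adjusted p of 0.0324. Without moderation or pairing 722 probes (3.72%) and 0 members passed. Leaving out each cow gave 1045 to 3291 probes (5.39 to 17.0%) and 1 to 3 members. Fewest probes passed without cow 2 (1045), cow 4 (1205) and cow 1 (1530).

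The direction turned for genes near 0. NR4A1 was 0.12 without scaling and 0.13 without slide 3, and ran from -0.30 to 0.053 with a cow left out. IER3 was -0.12 with normexp and the percentile shift, -0.013 without slide 3, and ran from -0.0036 to 0.16 with a cow left out. MYC was 0.24 without scaling and 0.028 without slide 3. EGR1, IER2, DUSP1 and ZFP36 were positive in every alternative run, at 0.40 to 1.13, 0.49 to 0.88, 0.49 to 1.09 and 0.27 to 0.79. Their adjusted p ranged from 0.00798 to 0.180, 0.00328 to 0.183, 0.015 to 0.331 and 0.0213 to 0.446. DUSP1, ZFP36 and IER3 passed without scaling, where the common shift of 0.30 adds to each value. Slide 3 was dimmer, so low probes are least certain in cows 5 and 6.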
